A study of Mus musculus with 2 samples.

Results

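A set of 8 genes that make, load, take up, break down and sense the inhibitory transmitter GABA was followed in total RNA of mouse dorsal striatum: Gad1, Gad2, Slc32a1, Slc6a11, Abat, Aldh5a1, Gabbr1 and Gabbr2. They were taken by symbol from the 32531 genes listed in both deposited count tables, and all 8 were found and passed the filter of 50 counts over both libraries. The mice belonged to the Drd1-TRAP line CP73, a BAC transgenic that expresses the ribosomal protein Rpl10a fused to EGFP under control of Drd1, the dopamine D1 receptor gene. Their background was FVB/N and Swiss Webster crossed to C57BL/6 for 9 generations or more. All animals had self-administered cocaine by the intravenous route under long access. There was 1 library from the group that escalated its intake and 1 from the group that did not. Each was prepared from the input, which is RNA of the whole dissected tissue and not of the tagged ribosomes. No cocaine-free group is part of the comparison, and the ages, sexes, dose and number of animals behind each library were not given in the sources used here.

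GABA is made from glutamate by glutamate decarboxylase, an enzyme that needs pyridoxal phosphate and comes in a form encoded by Gad1, spread through the cell, and a form encoded by Gad2, enriched at nerve terminals. The vesicular transporter encoded by Slc32a1 loads GABA into synaptic vesicles. After release, GABA is taken back into neurons and astrocytes, then converted in mitochondria by Abat to succinic semialdehyde and by Aldh5a1 to succinate, which enters the citric acid cycle. GABA-B receptors are pairs of a Gabbr1 subunit, which binds GABA, and a Gabbr2 subunit, which couples to inhibitory G proteins. Most neurons of the dorsal striatum are GABAergic projection neurons, so these genes belong to the basic equipment of the tissue.

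Gad1 and Gad2 are paralogs, and the counts of each depend on reads that can be told apart. The longest run of identical bases between their coding sequences was 17, starting at coding base 1204 in Gad1 and 1180 in Gad2. It is shown here with 24 bases on each side, the shared run in capitals, as read from GENCODE M21 transcripts on build GRCm38, 5′ to 3′ on the coding strand.
Gad1: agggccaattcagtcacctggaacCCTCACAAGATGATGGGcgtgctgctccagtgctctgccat
Gad2: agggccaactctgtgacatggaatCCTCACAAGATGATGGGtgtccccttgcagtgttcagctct
The AAG triplet in the capitals encodes the lysine that holds pyridoxal phosphate in the enzyme's active site. The corresponding run between Slc6a11 and Slc6a13, which encodes another plasma membrane GABA transporter of the family, was 19 bases long.
Slc6a11: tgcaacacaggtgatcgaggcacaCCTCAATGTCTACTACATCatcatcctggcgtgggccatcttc
Slc6a13: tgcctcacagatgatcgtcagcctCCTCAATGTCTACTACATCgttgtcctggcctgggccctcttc
Gabbr1 and Gabbr2 shared at most 12 identical bases in a row in their coding sequences.

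Reads assigned to genes numbered 9548358 (escalating) and 9376097 (nonescalating). The share of reads that fell in more than 1 gene was 8.06% and 18.9%, respectively, and the share that fell in no gene was 28.6% and 18.1%. A single symbol, AK140265, took 9.66% and 24.1% of assigned reads. Counts were therefore scaled with TMM factors and are given as CPM, the number of reads per 1000000 reads of the scaled library. Against total reads, TMM lowers every ratio of escalating over nonescalating by 0.36 on the log2 scale, and over the 12213 measured genes the log2 ratio had a median of 0.02 under TMM and 0.38 under total reads. With 1 library per group there is no replicate check and no test: intervals after CPM values are exact 95% Poisson intervals and intervals after ratios are exact 95% Clopper-Pearson intervals of the split of the reads. Both cover counting error only, and what is compared is a pair of libraries, not the behavioural groups. Calls needed a ratio of at least 1.5-fold and an interval excluding 1. Where values come in pairs, the escalating library is given first. By the rule for calls 26.4% of all measured genes were called, 9.36% as higher in the escalating library and 17.1% as lower. With total reads 3853 of the 12213 measured genes were called higher and 1148 lower, the background for the counts given under that scaling.

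Of the 8 GABA genes, 2 were called lower in the escalating library, 0 were called higher and 6 were not called, beside 17.1% lower, 9.36% higher and 26.4% called in either direction among all measured genes. Slc6a11, the astrocytic transporter, had by far the widest gap, at 3.94-fold lower, followed by Gabbr2 at 1.85-fold lower. The synthesis genes Gad1 and Gad2, the vesicular transporter gene and both breakdown genes lay within 1.5-fold in either direction. The median log2 ratio of the 8 genes was -0.32, against 0.02 for all measured genes, and it was 0.04 when scaled to total reads.

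**Figure D1:**
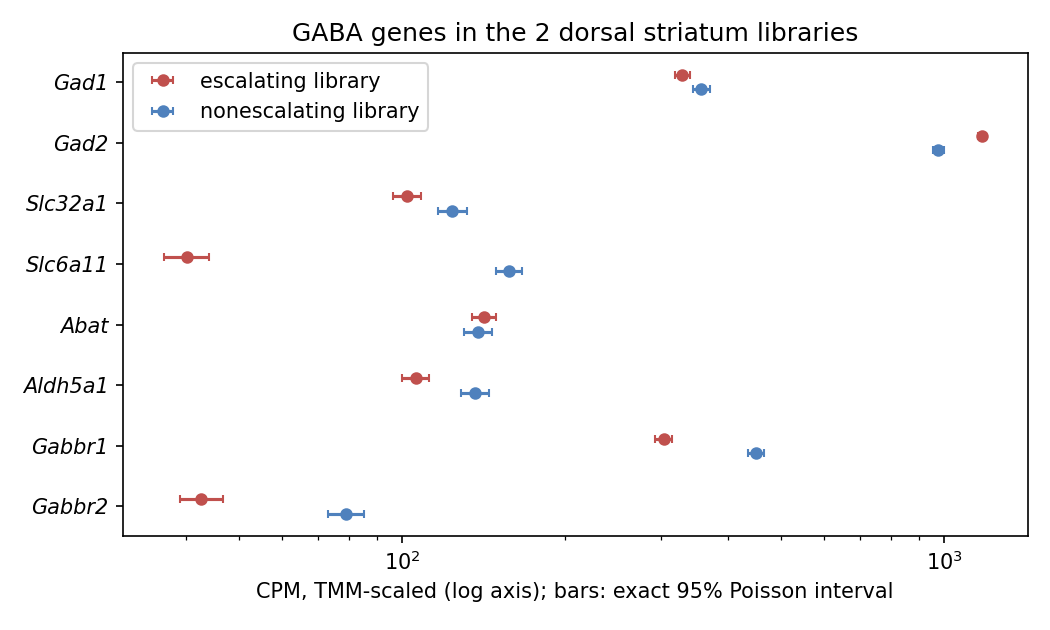
Level of each GABA gene in the escalating (red) and nonescalating (blue) library, as TMM-scaled CPM on a log axis with exact 95% Poisson intervals. Slc6a11 stands at 40.1 and 158 CPM, while the intervals of Abat, at 142 and 138 CPM, overlap.

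Gad2 drew the most reads of the 8 genes. It lies on chromosome 2 (22622205 to 22693874, plus strand, mm10) and drew 12732 reads from the escalating library and 8079 from the other, or 1177 CPM (1156 to 1197) and 976 CPM (955 to 998). The escalating library was the higher one, by 1.20-fold (1.17 to 1.24), which is under the 1.5-fold threshold. Its log2 ratio of 0.27 was equalled or passed by 28.9% of all measured genes. Gad2 depends on the scaling for its call: with total reads its log2 ratio was 0.63 and it was called higher, and when ratios were centred on a list of projection neuron genes it was 0.056.

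Gad1, also on chromosome 2 (70553072 to 70602014, plus strand), had 3563 and 2949 counts. These made 329 CPM (319 to 340) in the escalating library and 356 CPM (344 to 370) in the other. The intervals do not overlap, but the log2 ratio was only -0.11 (-0.19 to -0.04) and turned to 0.25 with total reads. The ratio of Gad2 to Gad1 counts within a library does not depend on the scaling. It was 3.57 in the escalating library and 2.74 in the other, a difference of 1.30-fold (exact conditional interval 1.23 to 1.38) that is larger than counting error. The antisense gene Gad1os lies opposite Gad1 with no exonic overlap in GENCODE M21 and had 30 and 5 counts.

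Slc32a1, the gene for the vesicular GABA transporter (chromosome 2, 158610767 to 158615748, plus strand), had 1108 and 1025 counts. Its level was 102 CPM (96.5 to 109) in the escalating library and 124 CPM (116 to 132) in the other. The log2 ratio was -0.27 (-0.40 to -0.15), not called, and 0.086 with total reads. Set against Gad2 in the same library, Slc32a1 counts were 0.087 of the Gad2 counts in the escalating library and 0.127 in the other. Relative to Gad2, Slc32a1 was therefore at 0.686 (0.627 to 0.751) of its nonescalating value in the escalating library. Of the exonic bases of Slc32a1, 24.9% overlap the antisense gene Gm14205 in GENCODE M21. No source used here says whether the authors counted by strand, so reads of the pair may not be told apart.

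Slc6a11 encodes the plasma membrane transporter that clears GABA mainly into astrocytes (chromosome 6, 114131241 to 114249952, plus strand). It drew 434 reads from the escalating library and 1306 from the other, or 40.1 CPM (36.4 to 44.1) and 158 CPM (149 to 167). The escalating library was lower by 3.94-fold (3.53 to 4.40), a log2 ratio of -1.98, and 2.64% of all measured genes had a ratio as low or lower. The call held under each of the 6 other scalings, with log2 ratios from -2.19 to -1.61. Per library, Slc6a11 counts were 0.0341 of Gad2 counts in the escalating library and 0.162 in the other. This within-library ratio was lower in the escalating library too, at 0.211 (0.188 to 0.236) of the other.

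Astrocyte markers moved with Slc6a11. All 17 measured astrocyte markers of 18 listed were called lower in the escalating library, with log2 ratios from -3.22 to -0.79 and a median of -1.55, and 15 were with total reads. Of all measured genes 17.1% were called lower, and with total reads 1148 of 12213. The summed level of the astrocyte markers was 2290 CPM in the escalating library and 15626 CPM in the other, and 0 of the 18 markers were at 0 counts. Slc6a11 lay inside their range, with 7 astrocyte markers lower in ratio and 10 higher. It also lay inside the ranges of mature oligodendrocyte markers (2 lower, 14 higher) and endothelial markers (1 lower, 13 higher). Most of the summed astrocyte level came from the glutamate transporter gene Slc1a2, and the direction of Slc6a11 against that sum turns on it. Against all astrocyte markers summed, Slc6a11 was 1.73-fold higher in the escalating library (approximate 95% interval 1.55 to 1.93). Against the sum without Slc1a2, a split made after the values were seen, it was at 0.692 (0.618 to 0.775) of its nonescalating value. The part of the astrocyte difference in the Slc6a11 result was not tested, and in tissue RNA fewer cells of a type and less RNA per cell cannot be told apart.

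Other cell types differed between the libraries as well. The background for each list is 9.36% of all measured genes called higher and 17.1% called lower. With total reads it is 3853 of 12213 higher and 1148 lower. All 18 microglial markers were lower, their summed level being 41.5 and 1956 CPM, with Trem2 and Gpr34 at 0 counts in the escalating library. Of mature oligodendrocyte markers 11 of 16 were called lower (7 with total reads), and of endothelial markers 11 of 14 (7 with total reads). Oligodendrocyte precursor markers had 4 of 10 called lower and 1 higher (2 and 1 with total reads). The 20 genes listed for projection neurons, the main GABAergic cells of this tissue, had summed levels of 16258 CPM in the escalating library and 14660 CPM in the other, with 1 gene called higher and 4 lower (10 higher and 2 lower with total reads). Markers of D1 and D2 projection neurons, 8 each, had 0 calls in either direction with TMM. Their summed levels were 930 and 964 CPM for D1 and 1349 and 1839 CPM for D2. The median log2 ratio was 0.06 for D1 and -0.30 for D2. With total reads 3 D1 markers were called higher. With the projection neuron centring 1 D1 and 3 D2 markers were called lower, beside 3094 of all 12213 measured genes. Of striatal GABA interneuron markers 3 of 9 were called higher and 1 lower (4 and 0 with total reads), with summed levels of 344 and 324 CPM. Markers of cortical excitatory neurons had 5 of 9 called higher and 2 lower (5 and 1 with total reads), with a median log2 ratio of 0.66. Their summed levels, 173 and 256 CPM, went the other way. The part of these differences in the GABA gene results was not tested.

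Neither breakdown enzyme gene was called. Abat, the mitochondrial GABA transaminase gene (chromosome 16, 8513429 to 8621568, plus strand), had 1534 and 1144 counts, or 142 CPM (135 to 149) and 138 CPM (130 to 147). Its interval included 1, at a log2 ratio of 0.04 (-0.08 to 0.15), so no difference between these libraries was detectable at this depth under TMM scaling. With total reads the log2 ratio was 0.40, not called.

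Aldh5a1, the succinic semialdehyde dehydrogenase gene (chromosome 13, 24907579 to 24937661, minus strand), had nearly equal raw counts of 1148 and 1128. After scaling these were 106 CPM (100 to 112) in the escalating library and 136 CPM (128 to 145) in the other. The log2 ratio of -0.36 (-0.48 to -0.24) is the size of the shift between the scalings, and with total reads it was -0.00091. Within a library, the ratio of Abat to Aldh5a1 counts was 1.34 in the escalating library and 1.01 in the other, a difference of 1.32-fold (1.18 to 1.48). In GENCODE M21 the antisense gene 4932702P03Rik overlaps 14.1% of the exonic bases of Aldh5a1, and it had 0 and 1 counts.

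Both receptor subunit genes had log2 ratios below 0 under each scaling used, and 1 of them, Gabbr2, was called lower. Gabbr1 (chromosome 17, 37045966 to 37075067, plus strand) had 3289 and 3723 counts, or 304 CPM (294 to 315) and 450 CPM (436 to 465). It was 1.48-fold lower (1.41 to 1.55), just short of the threshold, and was called lower only when ratios were centred on the projection neuron list, where its log2 ratio was -0.78. Under that centring 3094 of all 12213 measured genes were called lower. With total reads the log2 ratio of Gabbr1 was -0.21.

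Gabbr2 (chromosome 4, 46662305 to 46991873, minus strand) had 462 and 653 counts, or 42.7 CPM (38.9 to 46.8) and 78.9 CPM (73.0 to 85.2). It was 1.85-fold lower (1.64 to 2.09) in the escalating library, and 10.7% of measured genes had a ratio as low or lower. With total reads its log2 ratio was -0.52, not called. Its ratio under TMM, -0.89, lay at the upper end of the astrocyte range, with 2 of 17 astrocyte markers above it. Among endothelial markers 7 were lower and 7 higher than Gabbr2, and among mature oligodendrocyte markers 9 were lower and 7 higher. Gabbr2 also lay inside the ranges of oligodendrocyte precursor markers (2 lower, 8 higher), projection neuron genes (2 lower, 18 higher) and cortical excitatory neuron markers (1 lower, 8 higher). It lay below all 8 D1, all 8 D2 and all 9 striatal interneuron markers, and above all 18 microglial markers. The ratio of Gabbr1 to Gabbr2 counts was 7.12 in the escalating library and 5.70 in the other, a difference of 1.25-fold (1.10 to 1.42) that does not depend on the scaling.

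**Figure D2:**
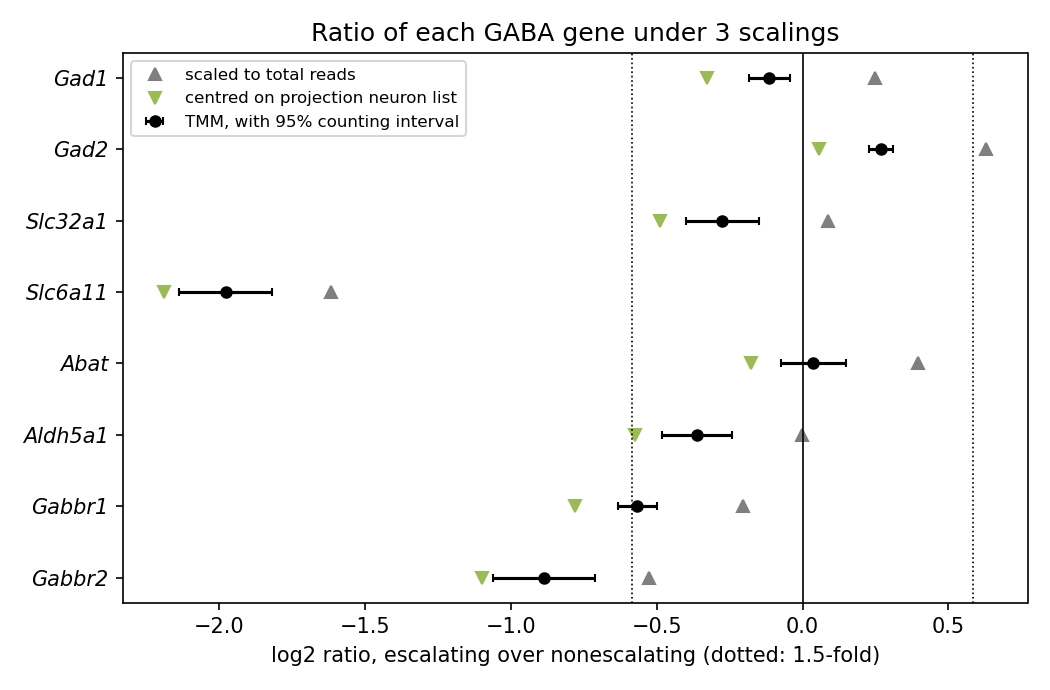
Log2 ratio of escalating over nonescalating for each GABA gene with TMM scaling (black, 95% counting interval), total reads (grey) and centring on projection neuron genes (green); dotted lines mark 1.5-fold. Slc6a11 lies beyond the lower line under all 3, Gabbr2 under 2 of the 3, and Gad1, Slc32a1 and Abat change sign.

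Levels can be compared between genes only per transcript length. In CPM per kilobase of the longest GENCODE M21 transcript, the order in the escalating library was Gad2 at 205, Gad1 at 91.4, Gabbr1 at 57.9, Slc32a1 at 36.6, Abat at 30.6, Aldh5a1 at 18.8, Slc6a11 at 9.71 and Gabbr2 at 7.43. In the nonescalating library Gad2 stood at 170, Gad1 at 99.0, Gabbr1 at 85.7, Slc32a1 at 44.3, Slc6a11 at 38.2, Abat at 29.8, Aldh5a1 at 24.1 and Gabbr2 at 13.7. With this length the orders differ in the place of Slc6a11, which ranked above both breakdown enzymes in the nonescalating and below both in the escalating library. The Poisson intervals of neighbours in either order do not overlap, but the lengths are less certain than the counts. With the union of exons Gad1 stood at 44.9 CPM per kilobase as the mean of both libraries, below Gabbr1 at 48.6, and with the median coding transcript Gad1 and Gabbr1, at 301 and 236, passed Gad2 at 187. Averaged over both libraries, Gabbr2 was the lowest of the 8 with each length used. Per length, Gabbr1 was 7.80 times Gabbr2 in the escalating library and 6.25 times in the other.

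**Figure D3:**
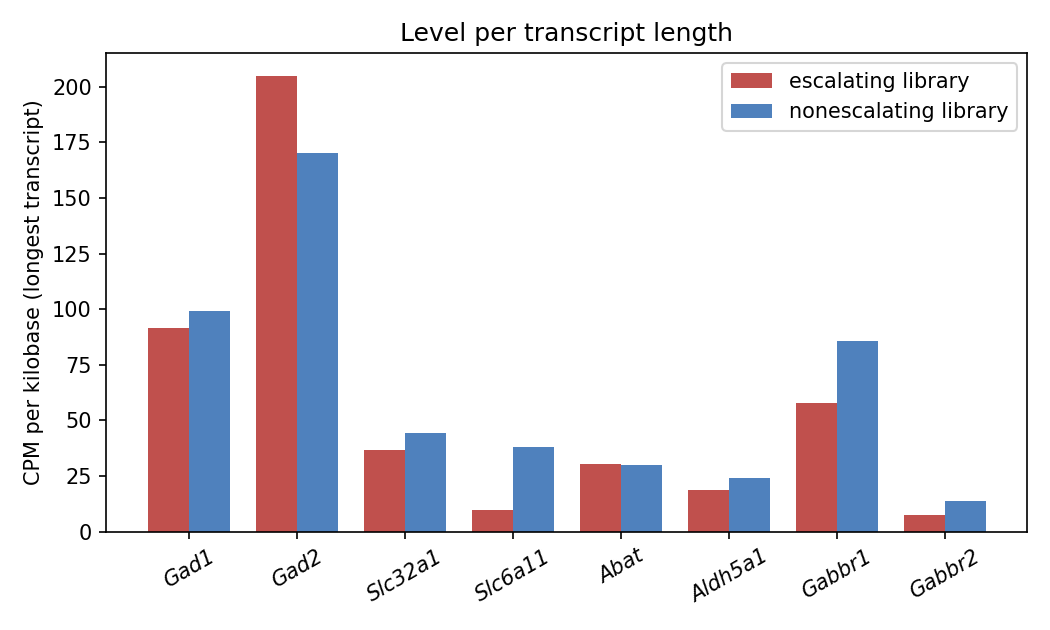
CPM per kilobase of the longest annotated transcript for each GABA gene in the escalating (red) and nonescalating (blue) library; bars start at 0 and carry no replicate error. Gad2 is tallest in both, at 205 and 170, and Slc6a11 is 9.71 beside 38.2.

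The genes around this pathway were described from 8 lists of 84 genes in all, of which 83 were found in the files and 75 were measured. Of these 75, 8 were called higher (10.7%) and 20 lower (26.7%), beside 9.36% and 17.1% of all measured genes, with a median log2 ratio of -0.06. With total reads 23 were higher and 14 lower, beside 3853 and 1148 of all 12213 measured genes. Among the partners of uptake, Slc6a8 and Slc6a6, which transport creatine and taurine, had log2 ratios of -0.10 and -0.06. Slc6a12 and Slc6a13, further transporters of the family, had too few counts to be measured. None of the 3 measured uptake partners was called, beside Slc6a11 at -1.98.

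Genes that supply glutamine and glutamate had 6 of 12 called lower and 0 higher, with a median log2 ratio of -0.49 (5 lower and 3 higher with total reads, median -0.13). Among all measured genes 17.1% were lower and 9.36% higher, and with total reads 1148 and 3853 of 12213. Slc1a2 and Slc1a3, glutamate transporter genes of astrocytes that are also in the astrocyte list, were 9.33-fold (9.18 to 9.49) and 4.35-fold lower (4.09 to 4.63). Slc38a3, a glutamine exporter gene, was 3.04-fold lower (2.47 to 3.78). Glul, the glutamine synthetase gene, drew 4408 and 9325 reads, which made it 2.77-fold lower (2.67 to 2.87), and Glud1, the glutamate dehydrogenase gene, was 2.39-fold lower (2.29 to 2.50). Glul and Glud1 were named after their values were seen. Beside this list the astrocyte median was -1.55, and its part in the result was not tested.

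In the list of alternative GABA synthesis and semialdehyde metabolism, 6 of 13 genes were lower and 1 higher, with a median of -0.30 (0.06 with total reads). Among all measured genes 17.1% were lower and 9.36% higher. The aldehyde dehydrogenase gene Aldh1a1 drew 97 and 304 reads, which made it 4.10-fold lower (3.25 to 5.21). Suclg2, a succinyl-CoA ligase subunit gene, was 2.82-fold lower (2.12 to 3.78), and Adhfe1, which oxidises hydroxybutyrate to the semialdehyde, was 2.36-fold lower (1.81 to 3.10). The higher gene, named after its value was seen, was D2hgdh at 1.61-fold (1.14 to 2.30), which oxidises hydroxyglutarate. Genes of pyridoxal phosphate metabolism had 0 of 4 called, with log2 ratios of 0.48 for Prosc, whose protein binds the cofactor, and 0.30 for Pdxp, the phosphatase gene whose enzyme removes its phosphate. With total reads 3 of these 4 were called higher, beside 3853 of all 12213 measured genes. Of vesicle loading partners 1 of 8 was lower (12.5%, below the share of all measured genes) and 0 higher (0 lower and 2 higher with total reads). The lower one, Slc18a2, the vesicular monoamine transporter gene, drew 56 and 69 reads, which made it 1.61-fold lower (1.12 to 2.34). The proton pump subunit genes Atp6v1b2 and Atp6v1a had log2 ratios of 0.48 and 0.36, not called.

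GABA-B auxiliary subunits and partners went both ways, with 2 of 8 called higher and 3 lower, beside 9.36% and 17.1% of all measured genes. Their median log2 ratio was -0.42, with 6 of the 8 below 0. The KCTD proteins bind the Gabbr2 tail and shape the kinetics of its signalling. Kctd12 drew 1390 and 2036 reads, which made it 1.92-fold lower (1.79 to 2.05), close to the 1.85-fold of Gabbr2, and Kctd12b was 3.39-fold lower (1.90 to 6.32) on 17 and 44 counts. Kctd16, with 553 and 274 counts, was 1.54-fold higher (1.33 to 1.79), and Kctd8 was 1.52-fold higher (1.18 to 1.97). Both lie close to the threshold and were named after their values were seen. With a pseudocount of 5 only 1 gene of the list was called higher. Itfg1, listed as a receptor partner, was 1.54-fold lower (1.42 to 1.68). In this list 2 genes were higher and 1 lower with total reads, beside 3853 and 1148 of all 12213 measured genes. With the projection neuron centring 0 were higher and 5 lower, beside 444 and 3094 of all measured genes.

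Of GABA-B effector and trafficking genes 3 of 17 were higher (17.6%) and 1 lower (5.88%), beside 9.36% and 17.1% of all measured genes. The median log2 ratio was 0.15. With total reads 6 were higher and 0 lower, beside 3853 and 1148 of all 12213 measured genes. With the projection neuron centring 1 was higher and 3 lower, beside 444 and 3094 of all measured genes. Ddit3, a stress-induced transcription factor gene whose protein binds the receptor, drew 114 and 44 reads, which made it 1.98-fold higher (1.39 to 2.87). Gng3, a G protein gamma subunit gene, was 1.73-fold higher (1.60 to 1.88), and Gnai2, an inhibitory alpha subunit gene, was 1.89-fold lower (1.73 to 2.07). The remaining called gene was Nsf, the ATPase that recycles vesicle fusion complexes, called higher at a log2 ratio of 0.59, just past the threshold, and named after its value was seen. With DESeq2 size factors 2 genes of the list were called higher, against 3 with TMM. Transcription factors of GABA neurons had 2 of 10 higher and 3 lower, beside the same shares of all measured genes (6 and 3 with total reads, 0 and 3 with the projection neuron centring). The lower genes included Dlx2 at 2.67-fold (1.62 to 4.49) and Dlx1 at 2.62-fold (1.73 to 4.02), each with at most 72 counts in a library. The higher ones, named after their values were seen, were Dlx5 at 1.61-fold (1.34 to 1.95) and the interneuron factor Lhx6 at 1.51-fold (1.28 to 1.77).

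**Figure D4:**
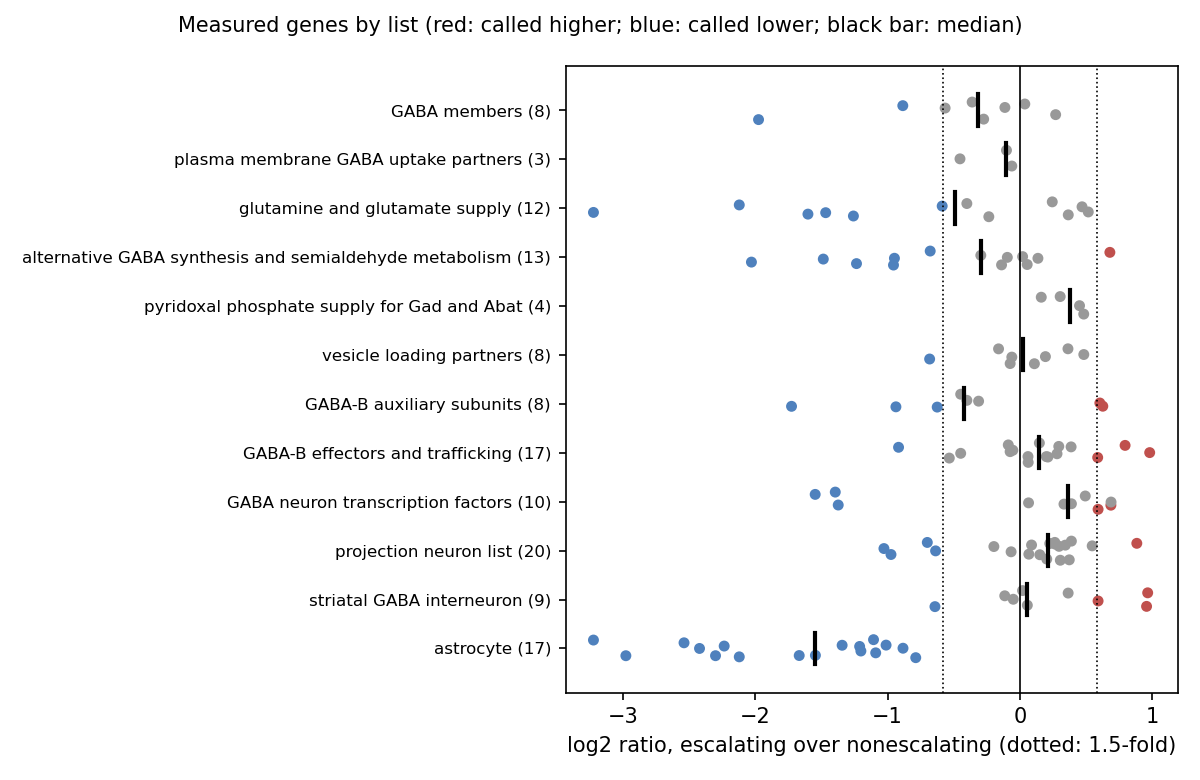
Log2 ratio of escalating over nonescalating for measured genes of each list (number measured in brackets), coloured red if called higher, blue if called lower and grey otherwise, with the list's median as a black bar; dotted lines mark 1.5-fold and points are spread vertically for legibility. All 17 astrocyte markers lie left of the lower line, as do Slc6a11 and Gabbr2 among the 8 GABA genes.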

How the data were processed

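Dorsal striatum RNA was sequenced as 1 library per group, and each library's group was taken from its title. Per the submitters' processing notes, the authors used STAR 2.0.0e, HTSeq and mouse build mm10. The annotation, read length, strand setting and HTSeq version were not given there. The authors deposited whole-number read counts per gene symbol, with no normalisation. The 6 entries that name no gene were left out of library sizes; 53.8% and 55.3% of reads listed were assigned to a gene.

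Library sizes were scaled with TMM factors (edgeR 4.0.16, R 4.3.3) of 1.13 (escalating) and 0.882 (nonescalating). Log2 ratios used a pseudocount of 0.5 in proportion to library size, and folds are ratios of CPM without it. No test between groups was run. A count of 0 allows up to 3 counts. Lengths, positions and overlaps came from GENCODE M21, which shares its build with mm10. Of 2 listed symbols absent from the counts, 1 was matched by an older symbol (Plpbp as Prosc). The 8 genes and all lists were chosen with earlier results of these data known. All 8 were named, with the 3 largest ratios in size of each list, but a few genes that this rule names are not reported here. Calls were tested on simulated data that held counting noise only, where 0.849% of unchanged genes were called. Differences between animals or dissections were not simulated, so the simulation does not show how often they lead to a call. The alternatives covered scaling (total reads, upper quartile, size factors of DESeq2 1.42.0, TMM without 10 top genes or without haemoglobin and ribosomal protein genes, centring on projection neuron genes), filters, a pseudocount of 5, call rules and transcript lengths. Python 3.11.15 was used with scipy 1.17.1, pandas 2.3.3, matplotlib 3.10.9 and numpy 2.4.6.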

Additional observations from a re-analysis of the deposited data

How the results depend on the processing

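No paired analysis was possible because each group has 1 library, and for the same reason no replicate could be left out. With total reads the log2 ratios were 0.25 for Gad1, 0.63 for Gad2, 0.086 for Slc32a1, -1.61 for Slc6a11, 0.40 for Abat, -0.00091 for Aldh5a1, -0.21 for Gabbr1 and -0.52 for Gabbr2. Then 1 of the 8 genes was called higher and 1 lower, with 23 pathway genes higher, and of all measured genes 3853 were higher and 1148 lower. Centred on projection neuron genes, they were -0.33 for Gad1, 0.056 for Gad2, -0.49 for Slc32a1, -2.19 for Slc6a11, -0.18 for Abat, -0.57 for Aldh5a1, -0.78 for Gabbr1 and -1.10 for Gabbr2, with 1 pathway gene and 444 of all genes higher. Under this centring 3 of the 8 genes, 26 pathway genes and 3094 of all genes were lower. Of all calls 35.4% were higher with TMM, 77.0% with total reads and 12.5% with the projection neuron centring. With the upper quartile Gad2 stood at 0.34. The shift common to all genes under each scaling comes from the library factors (0.36 for total reads). At 2-fold, 1 of the 8 genes, 12 pathway genes and 1085 of all genes were lower, and 0 pathway genes and 249 of all genes higher. With the whole interval past 1.5-fold, 1 pathway gene was higher, and of all genes 230 were higher and 1212 lower, against 1143 and 2085 in the main setting.

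With the union of exons as length, the mean CPM per kilobase was 44.9 for Gad1, 183 for Gad2, 19.6 for Slc6a11, 18.1 for Abat, 48.6 for Gabbr1 and 9.10 for Gabbr2. With the median coding transcript it was 301 for Gad1, 104 for Abat, 236 for Gabbr1 and 19.3 for Gabbr2. With the longest coding transcript, a length added after seeing the data, it was 102 for Gad1, whose longest transcript retains an intron. Counting error limits Gabbr2 and Slc6a11 most, with 1115 and 1740 reads over both libraries.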
